A study of Mus musculus with 6 samples.

Results

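The cadherins and protocadherins were read from bulk RNA-seq of healing flexor digitorum longus (FDL) tendons of mice. The members were chosen by symbol as the numbered cadherins (*Cdh*), the numbered protocadherins (*Pcdh*) and the genes of the *Pcdha*, *Pcdhb* and *Pcdhg* clusters, leaving out *Cdh5*. This rule, which used no measured value, found 91 of the 53819 genes listed, and 69 of the 91 passed edgeR's filter on low counts and were tested. The study depleted *Scx*-lineage cells while the repaired tendon was healing and compared the transcriptome with that of WT littermates afterwards.

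Of the 6 libraries, 3 came from Scx-Cre+; DTR F/+ mice (DTRScxLin) and 3 from Scx-Cre-; DTR F/+ mice (WT), with 1 tendon per library and 10 to 12 weeks of age at surgery. Mice of both genotypes carried the diphtheria toxin receptor (DTR) allele, had the FDL tendon cut and repaired, and received diphtheria toxin (DT) as 5 daily injections of 100 ng from D14 to D18. Tendons were taken at D28 post-surgery by the protocol, although the sample titles count D28 from depletion. Scx-Cre is not inducible, so the receptor was present in any cell with a history of *Scx* expression, and in bulk RNA fewer cells of a type cannot be told apart from less RNA per cell.

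Total counts per library ran from 42744138 to 48854310. The tendon marker list held between 2.34% and 3.35% of the counts of each library, and *Tnmd*, which encodes the tendon membrane protein tenomodulin, had between 50492 and 92197 normalized counts. All levels are given as normalized counts, that is, counts scaled by TMM to a library of average size, with *n* of 3 per genotype, and nothing in the labels beyond 1 tendon per sample describes the animals' litters or days. WT replicate 2 and DTRScxLin replicates 2 and 3 had *Xist* counts of 49303 or more and no *Ddx3y* count, while the other 3 libraries had *Xist* counts of at most 4, so the genotypes differed in sex composition. Skeletal muscle fibre transcripts made up 2.84%, 2.55% and 2.07% of the WT totals and 0.348%, 2.5% and 0.657% of the DTRScxLin totals, in replicate order. Keratinocyte transcripts held 0.280%, 0.169% and 0.00226% in WT and 0.00110%, 0.00212% and 0.0275% in DTRScxLin tendons.

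Cadherins are calcium-dependent adhesion proteins of the plasma membrane whose extracellular repeats bind cadherins on the neighbouring cell. Classical cadherins hold adherens junctions together and are anchored to actin through catenins, and tendon cells are joined along the collagen fibres by such junctions. Protocadherins lack the catenin-binding tail. The non-clustered protocadherins signal through other partners. The clustered ones lie in tandem arrays from which each neuron expresses a few genes as a surface identity, and in the alpha and gamma arrays the genes are alternative first exons spliced to common ones.

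Few members were abundant. Only 2 members averaged 10000 or more normalized counts over the 6 libraries, 8 averaged 1000 or more, 45 averaged 100 or more, and 8 had no count in any library (*Cdh7*, *Cdh8*, *Cdh12*, *Pcdhb1*, *Pcdha2*, *Pcdha6*, *Pcdha7* and *Pcdhac1*). A count of 0 over the 275583004 counts allows up to 3 counts, or 0.0109 CPM, for counting error alone. Together the members held 0.103% of all counts, and *Cdh11* and *Cdh13* took 55.7% of that. The numbered cadherins held 61.5% of the member counts, the non-clustered protocadherins 14.4%, the gamma cluster 12.3%, the beta cluster 11.8% and the alpha cluster 0.0318%.

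**Figure D1:**
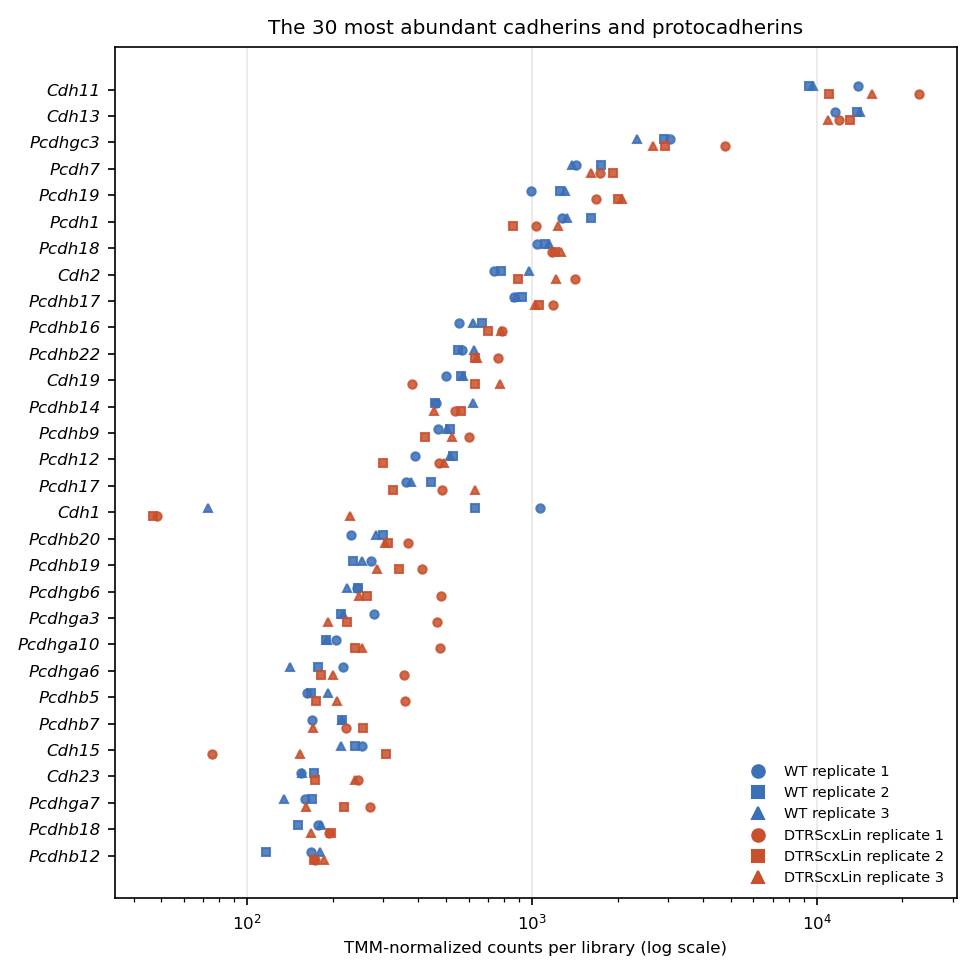
TMM-normalized counts of the 30 members with the highest means, on a log scale, with 1 point per library (WT in blue, DTRScxLin in red, and circle, square and triangle for replicates 1, 2 and 3). *Cdh11* and *Cdh13* stand apart from the rest at about 10000 counts or more, and *Cdh1* is the most widely scattered, from 46.9 to 1064.

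Levels were compared between genes per kilobase of exon that no other gene shares. On that scale *Cdh11* averaged 1545 normalized counts per kilobase (range over libraries 1053 to 2563), *Cdh13* 1121 (972 to 1264) and *Pcdhgc3* 920 (691 to 1408), and these 3 ranges overlapped. *Pcdh18* followed with 216 per kilobase (194 to 236) and *Pcdhb17* with 213 (186 to 255), below all 3 in each library and overlapping one another. *Pcdhb9*, *Pcdh7*, *Pcdh19* and *Pcdh1* came next, at 166, 155, 148 and 139 per kilobase, again with overlapping ranges. By this measure the members were thus led by 1 mesenchymal classical cadherin, 1 lipid-anchored cadherin and 1 constitutive gamma protocadherin. Other adhesion genes were not ranked. *Cdh5*, which the rule left out, had between 4751 and 5673 normalized counts, not scaled by length.

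No member was called different between the genotypes by edgeR's quasi-likelihood test, and neither was any other of the 17496 genes tested (0% called). The smallest Benjamini-Hochberg adjusted p from edgeR was 0.273 among the members and 0.199 among all genes. At an unadjusted p under 0.05, 6 of the 69 tested members (8.70%) were higher in DTRScxLin tendons against 5.52% of all genes, and 3 (4.35%) were lower against 5.45%. DESeq2, the tool of the study, called 466 of 17564 genes (2.65%), of which 1 was a member, *Pcdh19*, among the 1.12% that were called higher. Over the genes that edgeR tested, DESeq2 had 10 of 69 members (14.5%) higher at an unadjusted p under 0.05, against 5.58% of all genes, and 4 (5.80%) lower, against 7.11%.

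The direction of the members leaned upward. The fitted value was higher in DTRScxLin tendons for 49 of the 69 tested members (71.0%), against 51.5% of all genes, and the median log2 fold change was 0.23, against 0.0082 over all genes tested. The lean lay mostly in the clustered protocadherins, of which 35 of 43 tested were higher and 8 lower. The cadherins were split 8 to 7 and the non-clustered protocadherins 6 to 5. In 11 members (15.9%) each DTRScxLin library was above each WT library, against 8.97% of all genes, and in 4 members (5.80%) each was below, against 7.84%. The lean was uneven over the libraries, because DTRScxLin replicate 1 was the highest of the 6 libraries in 35 of the 69 members (50.7%), against 22.9% of all genes. Without that library the median was 0.13, and with the muscle level as a covariate it was 0.036. The count of 6 higher members became 2 (against 3.5% of all genes) without DTRScxLin replicate 1, 12 (6.95% of all genes) without DTRScxLin replicate 2, 3 (3.86%) without WT replicate 1 and 3 (5.93%) without WT replicate 3. It was 1 with the muscle level as a covariate (3.24% of all genes). Leaving out DTRScxLin replicate 2 let edgeR call 3.02% of all genes, with 0 members among them. The count of 3 lower members became 1 without WT replicate 1 (3.66% of all genes). With fewer libraries fewer values are left to overlap, and the share of all genes without overlap grew as well. The 11 members without overlap above WT became 21 of 69 (30.4%, against 16.5% of all genes) without DTRScxLin replicate 2 and 19 of 70 (27.1%, against 14%) without replicate 3. The 4 without overlap below WT became 8 of 70 (11.4%, against 12.4% of all genes) without WT replicate 1, 7 of 70 (10%, against 11.7%) without DTRScxLin replicate 1 and 7 of 70 (10%, against 13.7%) without DTRScxLin replicate 3.

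**Figure D2:**
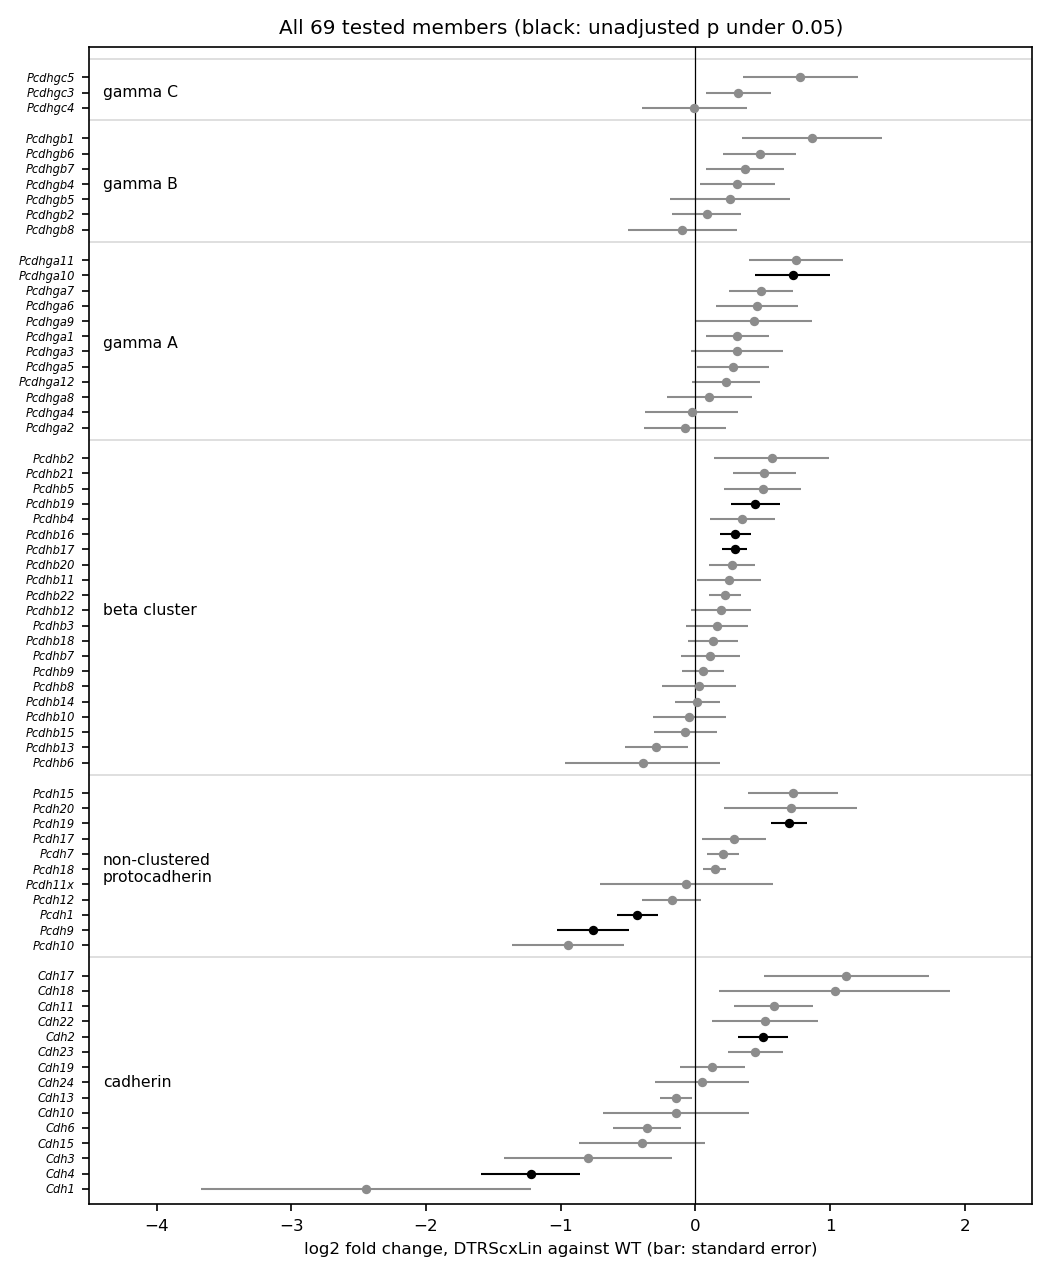
Log2 fold change (DTRScxLin against WT, edgeR) of each of the 69 tested members by class, with bars for the standard error and black for an unadjusted p under 0.05. Of the 22 gamma genes 18 lie right of zero, and of the 21 beta genes 17, while the cadherins are split 8 to 7.

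Among the non-clustered protocadherins, *Pcdh19* showed the clearest separation. *Pcdh19* encodes a delta-2 protocadherin that pairs with N-cadherin and binds the WAVE actin regulators, and its mutation causes an X-linked epilepsy. Its levels were 995, 1257 and 1305 counts in the WT tendons (replicates 1, 2 and 3, here and below) and 1674, 2012 and 2076 in the DTRScxLin tendons. The lowest DTRScxLin library was above the highest WT library, with means of 1186 ± 167 (SD, *n* = 3) and 1921 ± 216 (SD, *n* = 3), or 1.62-fold. In edgeR this was a log2 fold change of 0.70 (SE 0.13, unadjusted p = 0.00095, adjusted p = 0.273). DESeq2 gave an adjusted p of 0.0017, and edgeR without a filter on low counts gave 0.0133, where 0.27% of the genes were called. A heatmap in the study draws *Pcdh19* among adhesion genes chosen as higher in these same libraries, so its direction is not independent evidence.

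*Pcdh19* is X-linked, and the genotypes differed in sex composition, so the sexes were also looked at separately, a choice made after seeing the data. Between the 2 male WT libraries and the male DTRScxLin library the log2 ratio was 0.54, and between the female WT library and the 2 female DTRScxLin libraries it was 0.70, neither with a test. With sex as a covariate the log2 fold change was 0.62, and with the muscle level as a covariate it was 0.76.

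The other delta-2 genes were mixed. *Pcdh18*, which binds the adaptor Dab1, had 1040, 1109 and 1150 counts in WT and 1179, 1202 and 1266 in DTRScxLin tendons, a non-overlapping but small difference (log2 fold change 0.14, SE 0.09, adjusted p = 0.544 in edgeR). *Pcdh10* was scarce, with 18.3, 18.8 and 13.5 counts in WT and 6.18, 8.61 and 11.3 in DTRScxLin tendons. It thus went the other way (log2 fold change -0.95, SE 0.42, adjusted p = 0.462 in edgeR), and it and *Pcdh17* are named after their values were seen. *Pcdh17* overlapped, with 362, 444 and 375 counts in WT and 483, 326 and 633 in DTRScxLin tendons.

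Of the 4 delta-1 protocadherins, which carry a longer extracellular part and a phosphatase-binding motif, 3 were fitted lower and 1 higher. An unadjusted p under 0.05 in edgeR was reached by 2 of the 3, against 5.45% of all genes lower at that threshold. With 4 genes this is not read as a result about the subclass. *Pcdh1*, known from epithelia and endothelium, had 1280, 1608 and 1327 counts in WT and 1033, 859 and 1234 in DTRScxLin tendons. Every DTRScxLin library was below every WT library, and the log2 fold change was -0.43 (SE 0.15, adjusted p = 0.409 in edgeR), or -0.66 with the muscle level as a covariate. *Pcdh9*, best known from neurons, had 175, 120 and 163 counts in WT and 104, 98.5 and 66.8 in DTRScxLin tendons, again without overlap (log2 fold change -0.76, SE 0.27, adjusted p = 0.406 in edgeR). *Pcdh7*, the most abundant of the non-clustered group, overlapped between the genotypes, from 1385 to 1747 in WT and from 1609 to 1921 in DTRScxLin tendons (log2 fold change 0.21, SE 0.12). *Pcdh11x* had at most 30.8 counts in any library.

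The endothelial protocadherin *Pcdh12* had 389, 527 and 514 counts in WT and 473, 301 and 491 in DTRScxLin tendons (log2 fold change -0.18, SE 0.22). These values overlapped, and the endothelial marker list held between 0.0709% and 0.0919% of the counts of every library, with 9 of its 10 genes fitted lower. The *Pcdh15* and *Cdh23* pair, which joins the stereocilia of hair cells and is named here after its values were seen, was low in count. *Cdh23* had 155, 172 and 156 counts in WT and 245, 173 and 240 in DTRScxLin tendons, and *Pcdh15* had 101, 119 and 105 in WT and 270, 112 and 155 in DTRScxLin tendons. In both genes DTRScxLin replicates 1 and 3 were above all WT libraries. In *Cdh23* replicate 2 was barely above the highest WT library (173.1 against 172.3), so the genotypes did not overlap. In *Pcdh15* replicate 2 lay within the WT range.

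**Figure D3:**
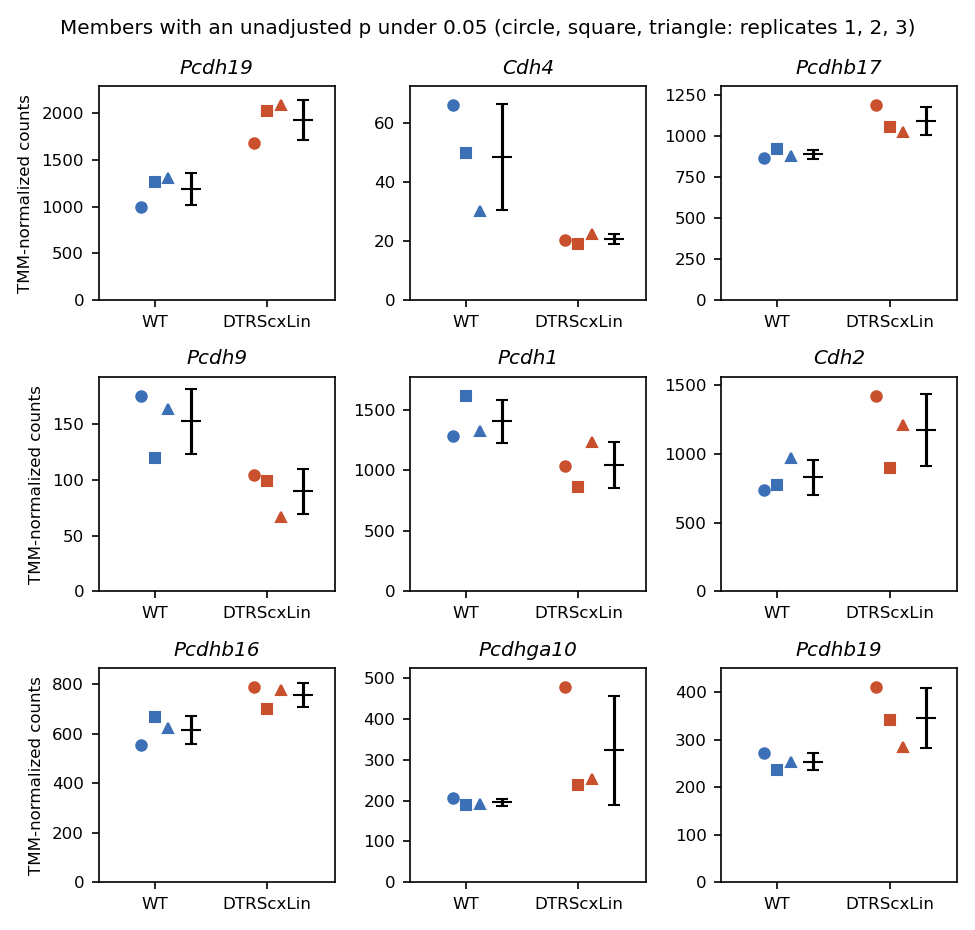
TMM-normalized counts by library of the 9 members with an unadjusted p under 0.05 in edgeR, each on its own linear axis from 0, with the bar showing the mean ± SD of 3 libraries. The genotypes do not overlap in 8 of the 9, and overlap in *Cdh2*, and in *Pcdhga10* DTRScxLin replicate 1 lies well above the other 5 libraries.

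Among the classical cadherins, 1 of the 5 type I genes was fitted higher in DTRScxLin tendons and 4 lower (median log2 fold change -0.79, the value of *Cdh3*). Of 7 tested type II genes 5 were higher and 2 lower (median 0.13), against 51.5% of all genes higher, without a call in either type. The type I genes *Cdh3* and *Cdh15* changed sign with a marker level as a covariate, as given below. The split is thus not read as a result about the subclasses. *Cdh11*, the type II cadherin of mesenchymal cells and fibroblasts, had 13961, 9379 and 9721 counts in WT and 22819, 11023 and 15650 in DTRScxLin tendons. WT replicate 1 exceeded DTRScxLin replicate 2, so the groups overlapped, and the log2 fold change was 0.58 (SE 0.29, adjusted p = 0.506 in edgeR). It was 0.27 without DTRScxLin replicate 1 and 0.021 with the muscle level as a covariate. The libraries with most *Cdh11*, DTRScxLin replicates 1 and 3, were those with least muscle transcript, and the part of muscle in this difference was not tested further.

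*Cdh2*, or N-cadherin, the type I cadherin of mesenchyme, nerve and muscle, had 739, 778 and 975 counts in WT and 1420, 898 and 1213 in DTRScxLin tendons. The lowest DTRScxLin library lay below the highest WT library. The log2 fold change was 0.50 (SE 0.19, unadjusted p = 0.029, adjusted p = 0.423 in edgeR). It was 0.089 with the muscle level as a covariate (unadjusted p = 0.564 in edgeR) and 0.41 with the keratinocyte level. *Cdh4*, or R-cadherin, a close relative of *Cdh2* known from retina and kidney, was the member with the largest lower value at an unadjusted p under 0.05. It had 65.9, 49.9 and 30.1 counts in WT and 20.6, 19.1 and 22.6 in DTRScxLin tendons, without overlap (log2 fold change -1.22, SE 0.37, unadjusted p = 0.011, adjusted p = 0.354 in edgeR).

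*Cdh13*, or T-cadherin, is held in the membrane by a lipid anchor, has no cytoplasmic tail and binds adiponectin. It was nearly level, with 11637, 13809 and 14193 counts in WT and 11962, 13046 and 10923 in DTRScxLin tendons (log2 fold change -0.14, SE 0.12, adjusted p = 0.663 in edgeR). *Cdh19*, a type II cadherin of the Schwann cell lineage, had 498, 563 and 572 counts in WT and 380, 631 and 771 in DTRScxLin tendons, so the DTRScxLin libraries lay on either side of the WT range. Its sign changed with sex as a covariate (-0.086) and without DTRScxLin replicate 3 (-0.10). The Schwann cell list held 0.0667%, 0.120% and 0.108% of counts in WT and 0.0492%, 0.0649% and 0.0847% in DTRScxLin tendons.

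The cadherins of epidermis and muscle were set beside the marker lists of those tissues. *Cdh1*, or E-cadherin of epithelia, had 1064, 633 and 72.7 counts in WT and 48.4, 46.9 and 230 in DTRScxLin tendons. Its order over the libraries was that of the keratinocyte list for the 4 highest libraries, and its log2 fold change of -2.44 (SE 1.23, adjusted p = 0.516 in edgeR) was -0.66 with the keratinocyte level as a covariate. *Cdh3*, or P-cadherin of basal epidermis, had 141, 125 and 33.3 counts in WT and 54.6, 27.7 and 90.4 in DTRScxLin tendons. Its log2 fold change of -0.79 (SE 0.62) turned to 0.16 with that covariate.

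All 14 keratinocyte markers were fitted lower in DTRScxLin tendons, with a median log2 fold change of -2.98, and 0 of them reached an unadjusted p under 0.05 in edgeR. The epidermal keratin *Krt5* was at 9332 and 4390 normalized counts in WT replicates 1 and 2, at 4.16 in WT replicate 3, at 0 in DTRScxLin replicates 1 and 2 and at 2100 in DTRScxLin replicate 3. *Cdh15*, or M-cadherin of muscle satellite cells and myoblasts, had 253, 239 and 214 counts in WT and 75.2, 307 and 153 in DTRScxLin tendons. Its lowest libraries were the pair with least muscle fibre transcript, and its log2 fold change of -0.40 (SE 0.47) turned to 0.44 with the muscle level as a covariate. All 21 muscle fibre markers were fitted lower, with a median of -1.24 and 0 at an unadjusted p under 0.05 in edgeR. The satellite cell and myoblast list, which is the list of the cells that *Cdh15* is known from, held 0.00891%, 0.0122% and 0.0103% of counts in WT and 0.00635%, 0.0283% and 0.0221% in DTRScxLin tendons. *Cdh15* and this list were both lowest in DTRScxLin replicate 1 and highest in replicate 2, but in DTRScxLin replicate 3 the list was second highest and *Cdh15* second lowest. Most of the list's counts in DTRScxLin replicate 3 were of the myosins *Myh3* and *Myh8*, at 3669 and 4050 normalized counts. There *Pax7*, *Myf5* and *Myod1* were at 34.9, 19.5 and 84.2, and *Myog* at 568, so the summed share says little about satellite cells. Of the list's 10 genes 6 were fitted higher and 4 lower.

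**Figure D4:**
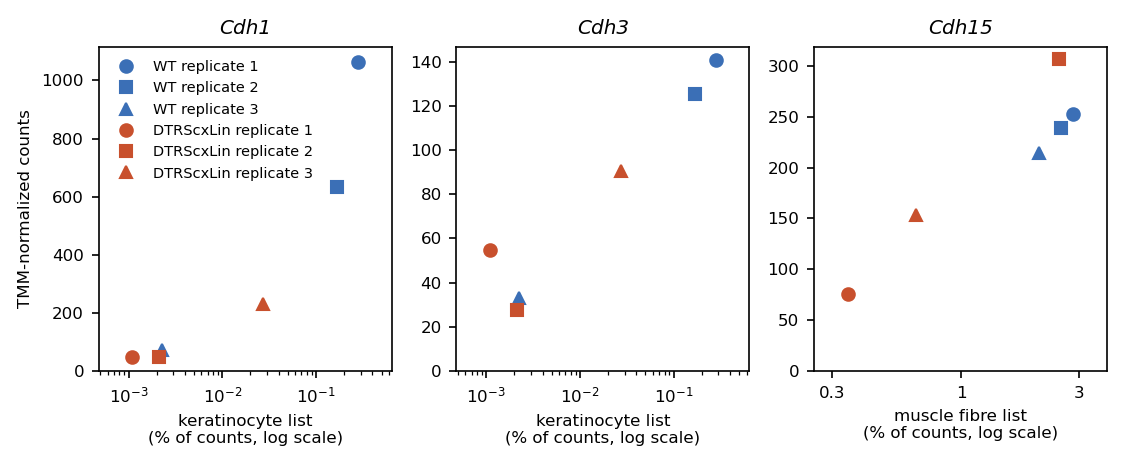
TMM-normalized counts of *Cdh1*, *Cdh3* and *Cdh15* against the share of counts held by the keratinocyte or the muscle fibre marker list (percent, log scale), with 1 point per library. The libraries with the highest *Cdh1* and *Cdh3*, WT replicates 1 and 2, have the largest keratinocyte share, and the library with the lowest *Cdh15*, DTRScxLin replicate 1, has the smallest muscle share.

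Of the clustered protocadherins, the alpha cluster was almost silent. Its 13 genes together had 15, 16 and 12 raw counts in WT and 18, 18 and 11 in DTRScxLin tendons, none passed the filter on low counts, and the highest were *Pcdhac2*, at a mean of 4.97 normalized counts, and *Pcdha11*, at 2.66. The C-type gene *Pcdhac1* had no count.

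The beta cluster was expressed broadly, with 21 of its 22 genes tested. Each beta gene has its own single coding exon, and the annotation gave at most 9.67% of a beta gene's exon sequence as shared. The cluster's summed level was 4826, 5195 and 5433 in WT and 6495, 5802 and 5660 in DTRScxLin tendons, so the genotypes did not overlap in the sum, with a ratio of means of 1.16. Of the tested genes 17 were fitted higher and 4 lower, with a median log2 fold change of 0.19 that was 0.13 without DTRScxLin replicate 1. In 6 of the 21 each DTRScxLin library was above each WT library, against 8.97% of all genes. *Pcdhb17*, *Pcdhb16* and *Pcdhb22* held 41.4% of the cluster's counts.

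*Pcdhb17* had 868, 922 and 880 counts in WT and 1187, 1058 and 1027 in DTRScxLin tendons (log2 fold change 0.29, SE 0.09, unadjusted p = 0.015, adjusted p = 0.378 in edgeR). The WT libraries were close together and all DTRScxLin libraries lay above them. *Pcdhb16*, with 554, 667 and 621 counts in WT and 786, 699 and 778 in DTRScxLin tendons, had the same pattern (log2 fold change 0.30, SE 0.11, adjusted p = 0.435 in edgeR, and 0.18 with the muscle level as a covariate), as had *Pcdhb19*, with 273, 236 and 253 in WT and 410, 342 and 286 in DTRScxLin tendons (0.45, SE 0.18, adjusted p = 0.447 in edgeR). *Pcdhb22* was also without overlap (570, 551 and 626 against 759, 629 and 644 counts), but its lowest DTRScxLin library exceeded the highest WT library only slightly. The abundant *Pcdhb14* and *Pcdhb9* overlapped, with log2 fold changes of 0.015 (SE 0.17) and 0.057 (SE 0.15) whose sign changed under several alternatives.

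All 22 gamma genes were tested. Gamma genes splice a variable first exon, which is their own, to constant exons shared by the whole cluster, and the annotation gave them a median of 44.7% shared exon sequence. *Pcdhgb8*, at 18.7 counts, and *Pcdhgc4*, at 31.8, stood far below *Pcdhgc3*, at 3110, so reads on the shared exons were not added to each gene. *Pcdhgc3*, a C-type gene expressed widely outside the nervous system, held 53.6% of the gamma counts.

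The gamma difference was carried by 1 library. The cluster's summed level was 5548, 5225 and 4427 in WT and 9193, 5455 and 4990 in DTRScxLin tendons, so DTRScxLin replicate 1 was far above the other 5 libraries, and those overlapped. The median log2 ratio to the WT mean over the 22 genes was 0.73 in DTRScxLin replicate 1, 0.077 in replicate 2 and 0.041 in replicate 3. Replicate 1 exceeded the WT mean in 22 of 22 genes and was the highest of all libraries in 19 of them (86.4%), against 22.9% of all genes, while replicates 2 and 3 exceeded the WT mean in 13 and 12. In the beta cluster the same library was the highest in 9 of 21 genes. The median fitted log2 fold change of the gamma genes, 0.31 with 18 higher and 4 lower, was 0.051 without DTRScxLin replicate 1 and 0.020 with the muscle level as a covariate.

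**Figure D5:**
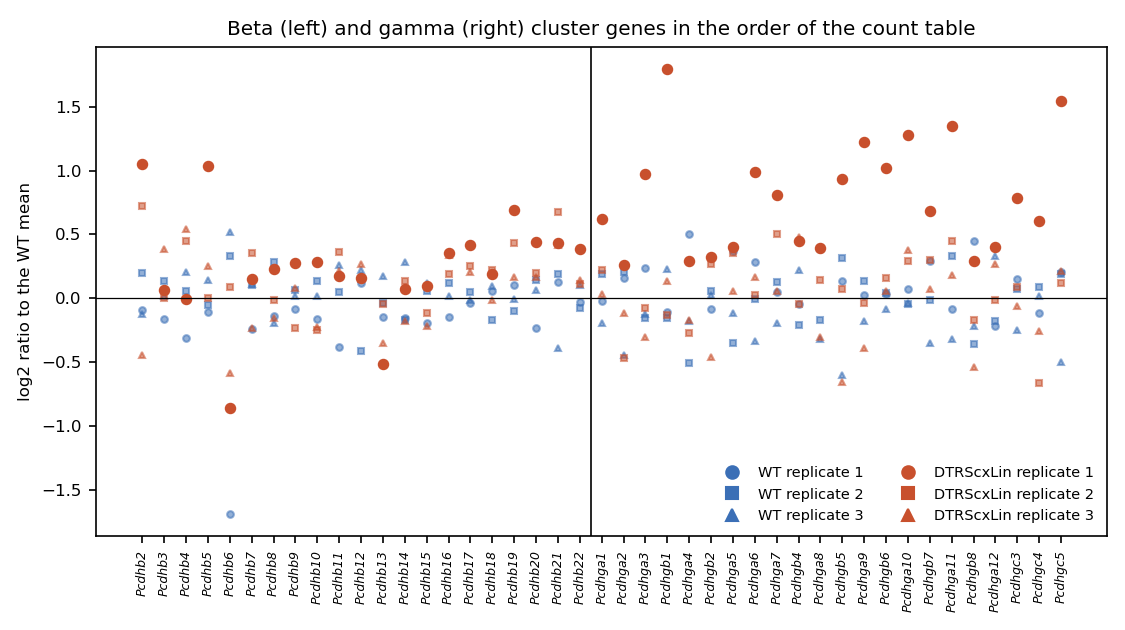
Log2 ratio of each library to the WT mean for the 21 tested beta genes (left) and the 22 gamma genes (right), in the order of the count table, with blue for WT, red for DTRScxLin and larger filled circles for DTRScxLin replicate 1. The larger circles lie above zero over the whole gamma cluster, up to 1.79 at *Pcdhgb1*, while the other DTRScxLin libraries scatter with the WT libraries.

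*Pcdhgc3* had 3065, 2905 and 2335 counts in WT and 4760, 2936 and 2660 in DTRScxLin tendons (log2 fold change 0.32, SE 0.24, adjusted p = 0.639 in edgeR). Replicate 1 was again the library that stood out. *Pcdhga10* had 206, 190 and 191 counts in WT and 476, 239 and 254 in DTRScxLin tendons, without overlap (log2 fold change 0.72, SE 0.28, unadjusted p = 0.035, adjusted p = 0.439 in edgeR), and the log2 fold change was 0.33 without replicate 1 and 0.23 with the muscle level as a covariate. *Pcdhgb6* had 243, 245 and 224 counts in WT and 481, 265 and 247 in DTRScxLin tendons, the lowest of which was barely above the WT range. Of the other C-type genes, *Pcdhgc5* had 135, 134 and 83.1 counts in WT and 342, 127 and 136 in DTRScxLin tendons, and *Pcdhgc4* had 29.4, 33.9 and 32.2 in WT and 48.4, 20.1 and 26.7 in DTRScxLin tendons. DTRScxLin replicate 1 had the least muscle fibre transcript and the most tendon marker transcript (3.35% of counts) of the 6 libraries, and the part of either in the gamma difference was not tested beyond the covariate.

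The partners of the cadherins were described by lists, and edgeR called no gene in any of them. Of 12 tested catenins and armadillo partners, which tie cadherins to actin or to intermediate filaments, 3 were fitted higher and 9 lower, with a median log2 fold change of -0.20. The core of the adherens junction, named here after its values were seen, was level, with log2 fold changes of 0.14 for beta-catenin (*Ctnnb1*, SE 0.11), 0.042 for alpha-catenin (*Ctnna1*, SE 0.11) and -0.028 for p120-catenin (*Ctnnd1*, SE 0.10). *Arvcf*, a p120 relative, had 668, 699 and 609 counts in WT and 459, 525 and 526 in DTRScxLin tendons, without overlap (log2 fold change -0.39, SE 0.12, adjusted p = 0.354 in edgeR). *Ctnna3*, the alpha-catenin of heart and muscle, was at -1.05 (SE 0.36) and *Jup*, or plakoglobin, at -0.86 (SE 0.31), and these 3 were the genes of the list at an unadjusted p under 0.05. DESeq2 called *Jup* (adjusted p = 0.0342), which had 6212, 5881 and 2805 counts in WT and 2939, 2420 and 2858 in DTRScxLin tendons, highest in the 2 libraries with most keratinocyte transcript.

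The list of desmosomal cadherins and linkers had 11 of 12 tested genes fitted lower and a median of -3.59, with 0 at an unadjusted p under 0.05. Periplakin (*Ppl*) was the closest to it, with a log2 fold change of -1.69 (SE 0.70, adjusted p = 0.474 in edgeR). Its summed share ran from 0.0993% of counts in WT replicate 1 to 0.00112% in DTRScxLin replicate 1, in step with the keratinocyte list at the high end. Of 15 tested giant and atypical cadherins 8 were fitted higher and 7 lower, with a median of 0.0012. The planar polarity cadherin *Celsr3* (log2 fold change 0.82, SE 0.33, adjusted p = 0.447 in edgeR) and *Fat1* (0.41, SE 0.17, adjusted p = 0.455 in edgeR) were the 2 at an unadjusted p under 0.05. *Fat1* had 6405, 7594 and 7199 counts in WT and 12016, 7681 and 8399 in DTRScxLin tendons, with DTRScxLin replicate 1 highest once more.

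Of 9 transcription factors known to repress *Cdh1*, 7 were fitted higher and 2 lower, with a median of 0.14, and *Zeb2* (log2 fold change 0.27, SE 0.10), *Zeb1* (0.33, SE 0.13) and *Twist1* (0.33, SE 0.14) were at an unadjusted p under 0.05. *Zeb2* had 7721, 7803 and 8141 counts in WT and 9636, 10345 and 8507 in DTRScxLin tendons, without overlap, with an adjusted p of 0.423 in edgeR. Of 12 regulators of clustered protocadherin promoter choice 10 were fitted higher and 2 lower, with a median of 0.070. *Smchd1*, a chromatin repressor that acts on the clusters, was at 0.22 (SE 0.08, adjusted p = 0.422 in edgeR), and *Ctcf*, the insulator that loops their promoters and named after its values were seen, at 0.042 (SE 0.08). Among 11 tested cadherin proteases 5 were higher and 6 lower (median -0.0046, smallest unadjusted p 0.051 for *Pcsk5* in edgeR). Among 11 WAVE complex genes 6 were higher and 5 lower (median 0.0046), with *Wasf1* at 0.36 (SE 0.15). Among 11 junction to actin linkers 4 were higher and 7 lower (median -0.027), with *Lima1* at 0.33 (SE 0.13).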

How the data were processed

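FDL tendon RNA from 3 DTRScxLin and 3 WT mice was sequenced as single-end libraries. The protocol in the labels names a stranded mRNA kit and then a SMARTER kit, and the aligner, genome build, annotation and strand setting are not given in the sources used here, so no coordinates are printed, and overlapping or near-identical genes are uncertain. After read cleaning in FastP, the authors ran featureCounts on genes, and what they deposited are whole-number counts with no normalization. A further table that the authors deposited holds a signal, found to be those counts divided by 1 size factor per library (0.973 to 1.06).

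The counts were fitted in edgeR 4.0.16 (R 4.3.3, limma 3.58.1) with filterByExpr, TMM and a robust quasi-likelihood test on genotype over the 17496 genes that passed, with Benjamini-Hochberg adjustment and a threshold of 0.05. Standard errors are the log2 fold change over the square root of F. p-values measure only the spread between these tendons. With 42744138 or more counts per library, the 3 animals per genotype set the precision. Replicates differed by chi-square values per degree of freedom of 36.6 to 190, so none was a duplicate. Shared and unshared exon lengths came from GENCODE M21 and were used only to scale levels. They matched 90 of the 91 members by symbol.

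The members, gene lists and tests were chosen with earlier results of these data known. Named members were the 15 most abundant, those with an unadjusted p under 0.05 in edgeR or called by DESeq2 1.42.0, 9 chosen by role, and the 2 highest and the C-type genes of each cluster. Of other lists, the called genes and the gene with the smallest p were named. The lists were 8 of partners and regulators and 10 of markers (tendon, muscle fibre, satellite cell and myoblast, keratinocyte, Schwann cell, endothelial, mural, chondrocyte and osteoblast, macrophage, neuron). Alternatives were DESeq2, limma-voom, normalization by RLE, by the upper quartile or by library size, no filter, at least 10 counts in every library, the deposited values as log2(value + 1) in limma, the replicate number as a block, covariates for muscle, keratinocytes and sex, and each library left out. No sequence is printed.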

Additional observations from a re-analysis of the deposited data

How the results depend on the processing

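For the named members, 433 log2 fold changes under an alternative kept their direction and their side of the threshold, 17 reversed and 2 moved past it (*Pcdh19*). The number of members called, 0 in edgeR, was 1 in DESeq2 and 1 with no filter on low counts, and 0 with each library left out. Members higher at an unadjusted p under 0.05, 6 in all (5.52% of all genes), numbered 10 in DESeq2 (5.58%) and 1 with the muscle level as a covariate (3.24%). With a library left out they numbered between 2 and 12 (2.81% to 6.95% of all genes). They numbered 10 with sex and 3 with the keratinocyte level as a covariate. The share of all genes was not counted in those fits, so these counts are not read as a result about the members. With a library left out, members lower numbered between 1 and 4 (2.76% to 9.68% of all genes), members without overlap between 14 and 21 above WT (11.9% to 17.1% of all genes) and between 5 and 8 below (10.4% to 17.2%), and the median was between 0.13 and 0.27. By library size alone 7 members were without overlap above WT, a share that was not counted over all genes. With the muscle level the median was 0.036. The cause of these shifts was not tested, except that fewer libraries leave fewer values to overlap.

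Signs turned as follows. *Pcdhb14* was at -0.015 by library size and -0.17 with the keratinocyte level, and from -0.063 to 0.18 with a library left out. With the muscle level *Cdh15* was at 0.44 and *Pcdhb9* at -0.24, and *Pcdhb9* ran from -0.073 to 0.19 with a library left out. *Cdh3* was at 0.16 with the keratinocyte level. With sex *Cdh19* was at -0.086 and *Pcdhgc4* at 0.068, and with a library left out they ran from -0.10 to 0.36 and from -0.45 to 0.24. *Pcdh12* ran from -0.30 to 0.018.

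Libraries with the same replicate number did not deviate together (r = -0.19, -0.15 and -0.68), so no pairing by number was seen. The libraries also differed in muscle, keratinocytes and sex, so this check cannot exclude a shared litter or day. With the replicate number as a block the members called were 0, those higher 5, those lower 3, the median 0.21, and *Pcdh19* had a log2 fold change of 0.70 (adjusted p = 0.163 in edgeR). The shares of all genes higher and lower were not counted with the block. The covariate fits and the block leave fewer degrees of freedom. The muscle level (mean log2 CPM of the list) was 6.98 and 7.62 in DTRScxLin replicates 1 and 3. It was between 9.47 and 9.93 in all other libraries. The fits with the muscle level thus cannot fully separate muscle from genotype. With 3 animals per genotype the precision is limited by animals, not depth.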

Other observations

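Further values of the marker lists, several of which stand beside cadherins above, were as follows, with no gene called by edgeR. DESeq2 called 3 genes of the Schwann cell list, 2 of the myoblast list and 1 each of the tendon, mural and macrophage lists. The tendon list had 8 of 10 genes fitted higher in DTRScxLin tendons (median log2 fold change 0.31), with the smallest unadjusted p for *Thbs4*, a matrix glycoprotein of tendon (log2 fold change 0.65, SE 0.16, adjusted p = 0.307 in edgeR). The mural and smooth muscle list had 9 of 10 fitted lower (median -0.30), led by *Abcc9*, a potassium channel subunit of pericytes (-0.57, SE 0.15, adjusted p = 0.340 in edgeR). The macrophage list was split 5 to 5 (median 0.039), and its haemoglobin scavenger receptor *Cd163* was at -1.52 (SE 0.31, adjusted p = 0.293 in edgeR). The Schwann cell list had 9 of 12 lower (median -0.25), yet *Egr2*, a myelination transcription factor, was at 0.74 (SE 0.18, adjusted p = 0.30 in edgeR). *Prx* and *Mbp* of that list, which DESeq2 also called, were lower. *Prx* was at -0.94 (SE 0.25, adjusted p = 0.0041 in DESeq2) and *Mbp* at -0.90 (SE 0.32, adjusted p = 0.022 in DESeq2). The chondrocyte and osteoblast list had 4 of 9 tested genes higher (median -0.27, *Matn3* -0.40, SE 0.16), and the neuron list 2 of 6 (median -0.25, *Map2* -0.65, SE 0.27). The endothelial list had the smallest unadjusted p for *Egfl7* (-0.23, SE 0.14), the muscle fibre list for *Ryr1* (-1.94, SE 0.76), the myoblast list for *Myh3* (2.03, SE 0.62, median of the list 0.66) and the keratinocyte list for *Grhl3* (-3.17, SE 1.25). *Mymk* of the myoblast list, called by DESeq2 as was *Myh3*, was at 1.30 (SE 0.48, adjusted p = 0.0499 in DESeq2).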
